A study of Rattus norvegicus with 20 samples.

Results

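The let-7 family was followed across rat tissues and serum through its 8 mature miRNAs rno-let-7a-5p, rno-let-7b-5p, rno-let-7c-5p, rno-let-7d-5p, rno-let-7e-5p, rno-let-7f-5p, rno-let-7i-5p and rno-miR-98-5p (written without the rat prefix from here on), which were chosen by name among the 577 mature miRNAs of the deposited lists. All 8 had at least 1 read in each of the 20 libraries. The libraries came from untreated, non-drinking male Long Evans Hooded rats at postnatal day 35. Whole brain hemispheres were sequenced singly (n = 3), serum was sequenced as 3 replicates, and each of 14 other tissues was sequenced as 1 pool of the RNA of 3 rats. The study used these tissues to ask where miRNAs found in serum could come from. Serum RNA was purified with a serum and plasma kit and tissue RNA with a tissue kit, so the kit and the sample type cannot be told apart in any comparison with serum.

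let-7 miRNAs are short RNAs that guide Argonaute proteins to messenger RNAs carrying sites that pair with the seed, the stretch near the 5′ end of the miRNA, and lower the output of those messengers. The family is known for promoting differentiation and restraining proliferation, with targets that include Lin28, Hmga2 and Ras genes, and its members accumulate as tissues such as the brain mature. LIN28 proteins in turn block the maturation of most let-7 precursors, and the members are made from several loci, some of them in clusters with one another or with miR-99, miR-100 and miR-125 genes.

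The mature sequences are shown because the members differ by so few bases that the composition of the family depends on telling them apart. They were taken from RefSeq (build GRCr8), in which all 8 members were found, and the capitals mark the seed, bases 2 to 8.
rno-let-7a-5p: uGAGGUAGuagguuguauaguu
rno-let-7b-5p: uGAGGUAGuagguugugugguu
rno-let-7c-5p: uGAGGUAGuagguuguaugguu
rno-let-7d-5p: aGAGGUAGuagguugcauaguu
rno-let-7e-5p: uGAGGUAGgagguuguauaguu
rno-let-7f-5p: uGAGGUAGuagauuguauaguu
rno-let-7i-5p: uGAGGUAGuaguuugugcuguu
rno-miR-98-5p: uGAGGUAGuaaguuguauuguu

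Each is 22 bases long and carries the same seed. Counted from 1 at the 5′ end, let-7c-5p differs from let-7a-5p by A19G, let-7e-5p by U9G and let-7f-5p by G12A, each a single substitution. let-7b-5p differs from it by A17G and A19G, and let-7i-5p by 4 substitutions, G12U, A17G, U18C and A19U. Of the 28 pairs of members, 4 are 1 base apart. Of 693 mature names in the RefSeq table, 9 hold the seed. The ninth is let-7g-5p, which is present in the deposited lists but is not among the 8 members, and it was added to the family as an alternative.

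The genes of the family lie at 11 places in GRCr8, and the deposited lists give no coordinates of their own. On the plus strand of chromosome 17, let-7a-1 (mature bases chr17:16320145-16320166), let-7f-1 (chr17:16320508-16320529) and let-7d (chr17:16322273-16322294) follow each other, with 274 bases between the hairpins of let-7a-1 and let-7f-1. let-7f-2 (chrX:24460052-24460073) and miR-98 (chrX:24460663-24460684) are neighbours on the X chromosome. let-7e (chr1:67350243-67350264) lies 95 bases from the hairpin of miR-99b and 353 bases from that of miR-125a. let-7c-1 (chr11:29688127-29688148) lies 639 bases from miR-99a, and let-7a-2 (chr8:50805219-50805240) lies 6828 bases from miR-100. let-7c-2 (chr7:118683636-118683657) and let-7b (chr7:118684044-118684065) are on the plus strand of chromosome 7, and let-7i (chr7:60527935-60527956) is on its minus strand.

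Depth differed strongly between sample types. Mature miRNA reads numbered 327488 to 1019681 in the hemispheres, 97782 to 2830736 in the pools and 4887 to 7022 in serum, so that on the scale of RPM (reads per 1000000 mature miRNA reads) 3 reads stood for 2.94 to 9.16 RPM in brain, 1.06 to 30.7 RPM in the pools and 427 to 614 RPM in serum. No pair of libraries held identical values. Taken over 291 miRNAs, whose levels are not independent of each other, r between log2 levels was 0.982 to 0.989 for pairs of hemispheres and 0.808 to 0.838 for pairs of serum libraries. The library labelled pancreas went against its label: miR-216a-5p and miR-217-5p, markers of acinar cells, had 0 reads, and the liver marker miR-122-5p stood at 10505 RPM, against 9151 RPM in liver. It is called the library labelled pancreas throughout. Where it held the highest or lowest share, the value of another library is given as well. The correlations of members with each other and with their neighbours, and the members' medians over the tissues, include it and were not repeated without it. In serum, miR-122-5p was uneven, at 6957, 51410 and 2948 RPM.

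The make-up of the family was the clearest difference between tissues and serum, and a share of the family's reads does not depend on how a library is scaled. In bulk samples, fewer cells of a type and less RNA per cell cannot be told apart. let-7f-5p was the most abundant member in all 17 tissue libraries. It held 35.3%, 33.7% and 36.4% of the family's reads in the hemispheres, which was less than in any pool, where it held 45.0% (fat) to 86.5% (the library labelled pancreas). Without that library the highest share was 82.0%, in liver. In kidney it was 79.4%. These values rest on 7602 to 194800 let-7f-5p reads a library in the pools.

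**Figure D1:**
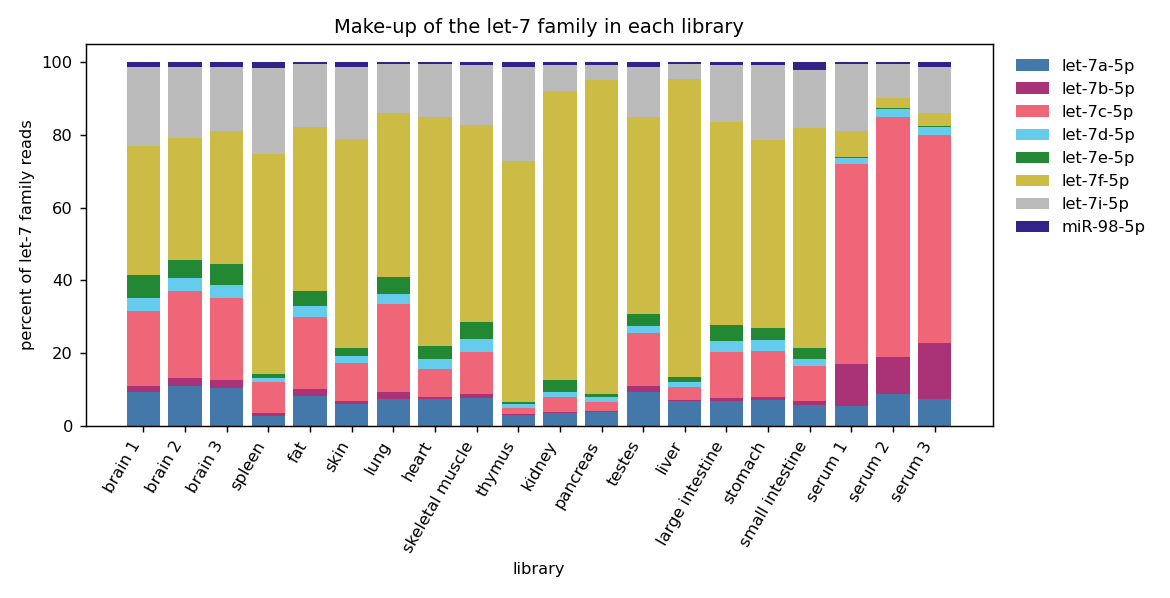
Percent of the reads of the 8 let-7 family members held by each member (stacked colours), in each of 20 libraries, with the pools ordered by falling family level. let-7f-5p is the largest part of every tissue bar, from 33.7% in a hemisphere to 86.5% in the library labelled pancreas, and let-7c-5p the largest part of the 3 serum bars, at 55.0% to 65.9%.

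The member in second place varied. It was let-7i-5p in 11 of the 17 tissue libraries, let-7c-5p in 5 and let-7a-5p in 1, the liver. let-7i-5p, made from a locus of its own, reached its highest share in thymus, at 25.8%, and spleen, at 23.8%, both lymphoid organs, and its lowest in the library labelled pancreas, at 4.17%, and liver, at 4.21%. let-7c-5p held 24.1% in lung, 20.0% in fat and 20.6%, 23.8% and 22.6% in the hemispheres, but 1.65% in thymus, 2.60% in the library labelled pancreas and 3.34% in liver. The number of let-7f-5p reads for each let-7c-5p read therefore ran from 1.41 in a hemisphere and 1.87 in lung to 40.2 in thymus.

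The hemispheres had the most even family. let-7f-5p, let-7c-5p and let-7i-5p, the 3 leading members there, summed to 76.6% to 77.7% of the family's reads, against 82.4% to 95.3% for the 3 leading members of each pool. let-7e-5p, which is processed from a transcript shared with miR-99b and miR-125a, made up 6.39%, 4.82% and 5.81% of the family in the hemispheres, above the 0.497% (thymus) to 4.51% (lung) of the pools. let-7b-5p held 1.55%, 2.31% and 2.34% in the hemispheres and 0.140% (thymus) to 2.09% (lung) in the pools, so that brain and the highest pools overlapped. let-7d-5p held 3.54% to 3.68% in brain, and skeletal muscle, at 3.61%, lay inside that range. miR-98-5p was highest in small intestine, at 2.22%, and held 1.32% to 1.43% in brain.

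Serum had another composition. let-7c-5p held 55.0%, 65.9% and 57.3% of the family's reads in the 3 serum libraries, more than in any tissue library, and let-7f-5p held 6.94%, 2.63% and 3.76%, less than in any tissue library. Both groups of values are far apart, since the lowest tissue share of let-7f-5p was 33.7% and the highest tissue share of let-7c-5p was 24.1%. The serum reads behind these shares were few, with 27, 18 and 22 reads of let-7f-5p and 214, 452 and 335 of let-7c-5p. There were 7.93, 25.1 and 15.2 let-7c-5p reads in serum for each let-7f-5p read, against 0.0249 to 0.707 in the tissue libraries.

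let-7b-5p, which differs from let-7c-5p at a single base, also stood out in serum. It held 11.6%, 10.2% and 15.2% of the family, from 45, 70 and 89 reads, while no tissue library exceeded 2.34%. It was also higher in serum relative to let-7c-5p, with 0.155 to 0.266 reads for each let-7c-5p read against 0.0515 to 0.119 in tissue. let-7e-5p had 2, 3 and 1 serum reads, a share of 0.171% to 0.514% that reached the 0.497% of thymus. Taken as RPM, 1 of the 8 members, let-7b-5p, was above every tissue library in all serum libraries, and 2, let-7e-5p and let-7f-5p, were below every tissue library. Over the 291 miRNAs with at least 10 reads in at least 3 libraries, 8.59% were above and 15.5% were below in this way.

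In the precursor lists, with the reads of a member's copies summed, let-7f held 34.8% to 38.3% of the family in brain and 7.88% to 14.3% in serum, where let-7f-2 supplied 61.0% to 75.6% of its reads, and let-7c held 48.1% to 59.5% in serum. The difference between serum and tissue was present in both annotations, but these count the same libraries and are not independent. In serum the let-7f-2 precursor reads alone outnumbered the let-7f-5p reads, so the precursor share of let-7f there is not a level of let-7f-5p.

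The family as a whole took 19.9%, 19.2% and 20.3% of mature miRNA reads in the hemispheres and 7.96%, 9.76% and 10.8% in serum. Among the pools it was highest in spleen, at 26.3%, then fat, at 23.2%, skin, at 22.9%, and lung, at 21.7%, and lowest in large intestine, at 6.86%, stomach, at 6.76%, and small intestine, at 5.13%. The brain mean was 198090 ± 5590 RPM (SD, n = 3), the serum mean 95005 ± 14279 RPM (SD, n = 3), and brain ranked 5th of the 15 tissues. Of the 14 neighbouring pairs in that order, 4 overlapped within the hemispheres' range or the pools' Wilson 95% intervals, which cover counting error only: fat and skin, brain and heart, the library labelled pancreas and testes, and testes and liver.

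**Figure D2:**
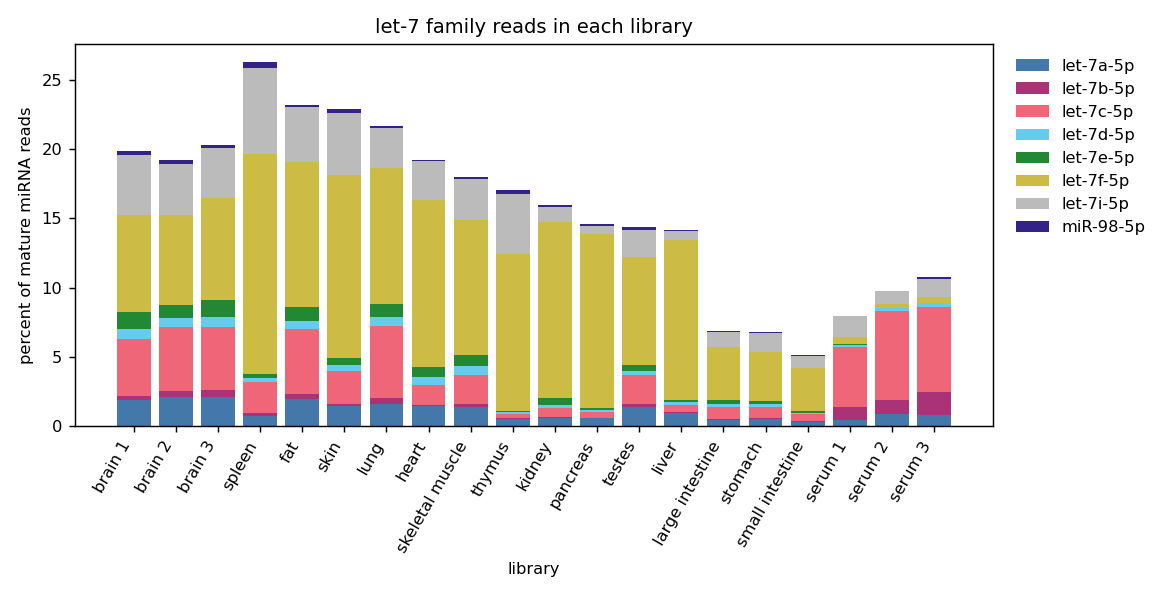
Percent of mature miRNA reads taken by each let-7 family member (stacked colours) in each of 20 libraries, scaled to the total of mature reads. Family totals run from 5.13% in small intestine to 26.3% in spleen, with the hemispheres at 19.2% to 20.3% and serum at 7.96% to 10.8%.

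This order depended on the scaling. The low values of the digestive tract stood beside a single abundant miRNA, miR-143-3p, which took 40.6% of mature reads in large intestine, 37.9% in small intestine and 68.7% in stomach. Its part in the low family level was not tested. With TMM, a scaling that centres the bulk of miRNAs between libraries, large intestine moved from 13th to 10th place, brain from 5th to 12th, lung led and testes was lowest. With DESeq2's size factors brain was 15th and thymus led. The shares inside the family are unaffected by these choices.

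The members did not share one profile over the tissues. Centred on the median of the 15 tissues, on the log2(RPM + 1) scale, brain stood at 2.39 for let-7b-5p, 1.60 for let-7c-5p, 1.51 for let-7d-5p, 1.26 for let-7e-5p, 1.24 for miR-98-5p and 1.07 for let-7a-5p, but at 0.48 for let-7i-5p and −0.59 for let-7f-5p. The SD between hemispheres on that scale was between 0.04 (miR-98-5p) and 0.34 (let-7b-5p). By RPM, brain was the highest of the 15 tissues for let-7a-5p, let-7d-5p and let-7e-5p, 2nd for let-7b-5p, 3rd for let-7c-5p and miR-98-5p, 5th for let-7i-5p and 12th for let-7f-5p. Fat lay within the range of the hemispheres for let-7a-5p, and fat and lung for let-7e-5p. With TMM scaling lung led for let-7a-5p to let-7e-5p, brain was 3rd to 6th for these 5, and it was the lowest of the 15 tissues for let-7f-5p. With DESeq2's size factors brain fell below the median tissue for let-7a-5p, let-7d-5p, let-7i-5p and miR-98-5p as well, and remained above it for let-7b-5p, let-7c-5p and let-7e-5p. Of the 14 neighbouring pairs in each member's order by RPM, 11 did not differ beyond their ranges for let-7b-5p, 8 for let-7d-5p and miR-98-5p, 7 for let-7a-5p and let-7e-5p, 5 for let-7c-5p, 3 for let-7i-5p and 2 for let-7f-5p.

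**Figure D3:**
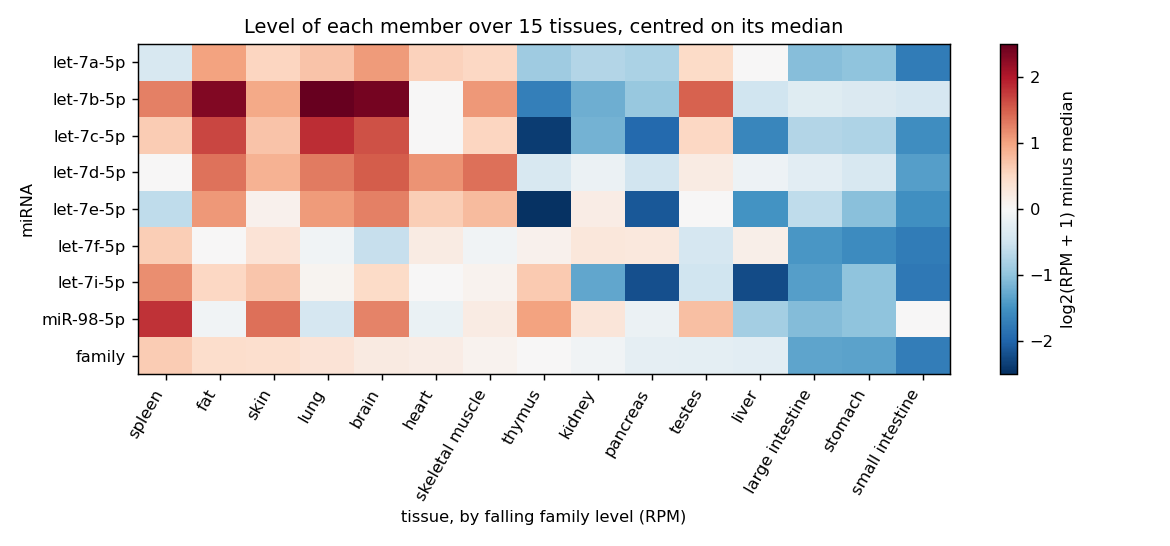
Level of each let-7 family member (rows) in 15 tissues (columns, by falling family level), as log2(RPM + 1) minus the member's median over the tissues; brain is the mean of 3 hemispheres. let-7b-5p to let-7e-5p are high in brain, fat and lung and low in thymus, while let-7f-5p is at −0.59 in brain and 0.11 in thymus; with DESeq2's size factors brain falls below the median for let-7a-5p, let-7d-5p, let-7i-5p and miR-98-5p.

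let-7a-5p measured 18586, 21068 and 21062 RPM in the hemispheres and 2883 (small intestine) to 19374 RPM (fat) in the pools. let-7d-5p, from the same cluster on chromosome 17, measured 7309, 6852 and 7200 RPM in the hemispheres and 964 (small intestine) to 6501 RPM (skeletal muscle) in the pools. let-7f-5p, from that cluster and a second locus, measured 70090, 64803 and 73984 RPM in brain and 31090 (small intestine) to 159098 RPM (spleen) in the pools. Of the 3, by RPM, let-7d-5p alone was higher in every hemisphere than in every pool, while 11 pools exceeded every hemisphere for let-7f-5p.

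let-7b-5p and let-7c-5p covered the widest ranges. let-7b-5p measured 3080, 4433 and 4764 RPM in the hemispheres and 238 (thymus) to 4521 RPM (lung) in the pools, a 19.0-fold range over the 15 tissues. let-7c-5p measured 40945, 45809 and 45873 RPM in the hemispheres and 2814 (thymus) to 52262 RPM (lung) in the pools, an 18.6-fold range. Both were therefore lowest in thymus and highest in lung, and lung stayed highest for both with TMM and with DESeq2's size factors, where the lowest for let-7c-5p was the library labelled pancreas in the second case. let-7f-5p had the narrowest range by RPM, at 5.12-fold.

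let-7e-5p measured 12687, 9274 and 11811 RPM in the hemispheres and 847 (thymus) to 9946 RPM (fat) in the pools. let-7i-5p measured 43296, 37279 and 36001 RPM in the hemispheres and 5957 (liver) to 62554 RPM (spleen) in the pools. miR-98-5p measured 2613, 2742 and 2708 RPM in the hemispheres and 536 (large intestine) to 3970 RPM (spleen) in the pools. By RPM let-7i-5p and miR-98-5p both peaked in spleen, as let-7f-5p did; with TMM and with DESeq2's size factors thymus led for let-7i-5p and miR-98-5p, and for let-7f-5p liver led with TMM and thymus with DESeq2's size factors.

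Over the 15 tissues, on log2(RPM + 1), the 28 pairs of members correlated with r from 0.09 to 0.96 and a median of 0.56; these points share libraries and totals, and the values are descriptions. The closest pair was let-7b-5p and let-7c-5p, at 0.96, followed by let-7a-5p and let-7d-5p, at 0.94. The loosest was let-7b-5p and let-7f-5p, at 0.09. let-7a-5p and let-7f-5p, whose first copies are neighbours on chromosome 17, had an r of 0.47.

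Among the miRNAs made from shared transcripts, let-7e-5p had an r of 0.85 with miR-99b-5p and 0.84 with miR-125a-5p, and miR-99b-5p and miR-125a-5p had an r of 0.94 with each other. let-7c-5p had an r of 0.73 with miR-99a-5p and 0.84 with miR-125b-5p, and let-7a-5p an r of 0.69 with miR-100-5p and 0.88 with miR-125b-5p. Such values were not particular to shared transcripts. Of the 28 pairs of members, 6 were above 0.8. They included let-7c-5p with let-7e-5p (0.89) and let-7d-5p with let-7e-5p (0.87), which lie on different chromosomes. let-7a-5p and let-7c-5p also come from 2 loci each, which the mature counts do not separate. All 5 miR-99, miR-100 and miR-125 neighbours were lowest by RPM in thymus among the pools. There miR-181a-5p took 28.3% of mature reads. How many of all miRNAs were lowest in thymus was not counted, so this count has no background beside it. miR-125a-5p averaged 5328 ± 381 RPM in brain (SD, n = 3) and 7933 ± 2924 RPM in serum (SD, n = 3).

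Outside the 8 members, the profile most like the family total over the 15 tissues, among 136 miRNAs with a mean of at least 100 RPM, was that of miR-26a-5p (r = 0.84), followed by let-7g-5p (r = 0.77) and miR-186-5p (r = 0.75). miR-26a-5p averaged 60378 ± 2508 RPM in brain (SD, n = 3) and was lowest in small intestine, at 12953 RPM. With TMM scaling miR-126a-3p came first (r = 0.70) and miR-26a-5p second (r = 0.70).

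Brain and serum are the replicated groups, and edgeR with TMM scaling was used to test each miRNA between them. Of the 212 miRNAs tested, 67.0% were called, 52.8% as higher in brain and 14.2% as lower, and the median log2 fold change over all of them was 3.86. Of the 8 members, 6 were called higher in brain, 1 lower and 1 neither way, with a median log2 fold change of 2.24. In RPM, every hemisphere was above every serum library for 6 members and below for 1, against 65.1% and 19.3% of all miRNAs tested, so the number of members that separated was near the background.

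let-7f-5p had 27, 18 and 22 serum reads, or 5525, 2563 and 4054 RPM, and its log2 fold change of brain over serum was 4.63 (edgeR, standard error 0.46, adjusted p = 2.0e-11). let-7e-5p had 2, 3 and 1 serum reads, or 409, 427 and 184 RPM. Its 6 serum reads in all put brain 33.6 times higher, with an exact Poisson 95% interval of 15.4 to 91.5 that covers counting error in serum only. These 2 members had the largest differences of the family, and every hemisphere was far above every serum library.

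let-7a-5p, at 4297, 8616 and 8108 RPM in serum, had a log2 fold change of 1.96 (edgeR, standard error 0.42, adjusted p = 0.00011). let-7i-5p, at 14733, 9257 and 13636 RPM in serum, had 2.11 (edgeR, standard error 0.40, adjusted p = 1.4e-05). let-7d-5p, at 1228, 1994 and 2395 RPM in serum, had 2.37 (edgeR, standard error 0.44, adjusted p = 1.4e-05). For these 3 the hemispheres were also above every serum library. miR-98-5p had 2, 3 and 7 serum reads and was 3.85 times higher in brain by the summed reads, with an exact Poisson 95% interval of 2.20 to 7.45.

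let-7b-5p was the member called higher in serum. It measured 9208, 9969 and 16400 RPM there, above the 3080 to 4764 RPM of the hemispheres, and its log2 fold change of brain over serum was −1.03 (edgeR, standard error 0.40, adjusted p = 0.021). The call was lost without brain replicate 1 (adjusted p = 0.15) or brain replicate 2 (adjusted p = 0.098), and with no filter on low counts (adjusted p = 0.80, log2 fold change −0.16). let-7c-5p measured 43790, 64369 and 61728 RPM in serum and 40945 to 45873 RPM in brain, so the groups overlapped. Its log2 fold change was 0.08 (edgeR, standard error 0.38, adjusted p = 0.85), turned to −0.36 with plain totals, and became 0.97 with a call (adjusted p = 0.0010) with no filter.

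**Figure D4:**
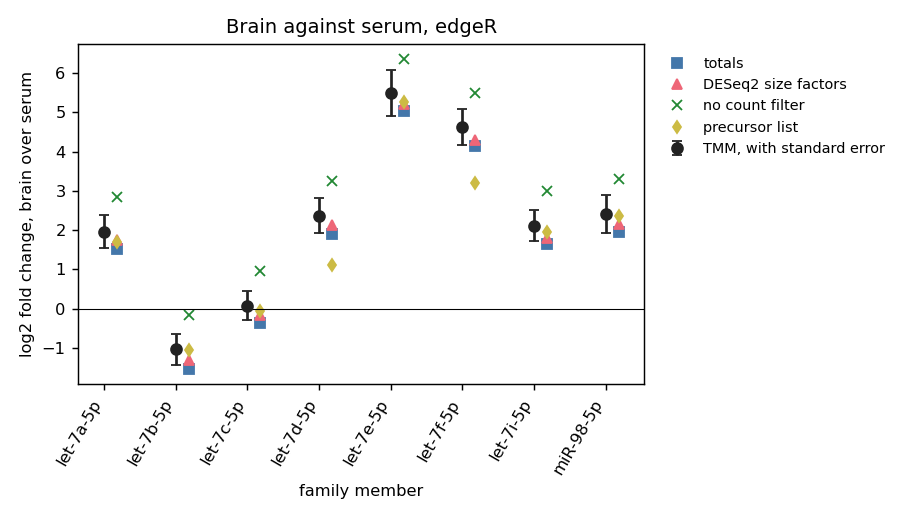
Log2 fold change of brain over serum for each let-7 family member from edgeR, with TMM scaling (black, bars are standard errors) and under 4 other settings (coloured marks). let-7e-5p, at 5.49, and let-7f-5p, at 4.63, are highest and let-7b-5p, at −1.03, lowest in the TMM fit, and let-7b-5p is the member below 0 in all 5 settings.

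A difference between members of 1 library does not depend on its scaling. The log2 fold change of let-7f-5p exceeded that of let-7c-5p by 3.26 to 4.98 in the main fit and its 14 alternatives. Of the 5 neighbours, miR-99a-5p, miR-100-5p and miR-125b-5p were called higher in brain, where 52.8% of all miRNAs tested were, miR-99b-5p lower (edgeR, log2 fold change −1.41, standard error 0.37, adjusted p = 0.0013), where 14.2% were, and miR-125a-5p neither way (edgeR, −0.18, adjusted p = 0.70). These counts were near the background, which includes miRNAs without serum reads. With no count filter miR-125a-5p was called higher in brain (0.71, adjusted p = 0.040). The call of miR-99a-5p was lost without brain replicate 1 (adjusted p = 0.055) or 3 (0.080) and, as for miR-100-5p, with plain totals (adjusted p = 0.092 for each), and that of miR-99b-5p with no count filter (adjusted p = 0.19). let-7e-5p and miR-99b-5p, from neighbouring hairpins, were thus called in opposite directions, with 6 serum reads behind the value of let-7e-5p.

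A further test set brain against the 14 pools as a single group, with the differences between those tissues as the error. The hemispheres are 1 tissue entered as 3 libraries, and the p-values can be too small for that reason. Of 290 miRNAs tested, 128 (44.1%) were called, 20.0% as higher in brain and 24.1% as lower, and 71, 73 and 77 were called without brain replicates 1, 2 and 3. With plain totals in place of TMM the share of calls that were higher in brain went from 45.3% to 75.7%, and the median log2 fold change of all miRNAs from −0.28 to 0.83.

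Of the 8 members, let-7f-5p was the 1 called, lower in brain, with a log2 fold change of −1.58 (edgeR, standard error 0.40, adjusted p = 0.0045). It was not called with plain totals (−0.50, adjusted p = 0.41) or without any 1 of the hemispheres (adjusted p = 0.081 to 0.11). By RPM, 1 member, let-7d-5p, was higher in every hemisphere than in every pool and none was lower, against 28.6% and 4.14% of all miRNAs tested. The other 7 had log2 fold changes from −0.43 (let-7i-5p) to 0.55 (let-7b-5p), and adjusted p from 0.45 to 1.00. The signs of let-7a-5p, let-7d-5p, let-7i-5p and miR-98-5p flipped between scalings. The difference between let-7f-5p and let-7c-5p within this comparison was −2.18 to −1.79 on the log2 scale under the 23 alternatives. The scaling settings among them could hardly change it, and the difference itself was not tested.

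The 3p arms, the strands opposite the mature 5p miRNAs in the hairpins and usually discarded, were rare in tissue. The 11 let-7 and miR-98 3p arms in the lists together made up 0.0360% to 0.605% of the reads of both arms in the tissue libraries, let-7g included. let-7d-3p supplied most of the 3p reads in serum, 38 of 39. Its sequence is shown because it is the arm that separates serum from tissue; it lies at chr17:16322327-16322348 on the plus strand.
let-7d-3p: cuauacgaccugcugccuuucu

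let-7d-3p had 13, 14 and 11 reads in the serum libraries, beside 6, 14 and 13 reads of let-7d-5p, or 68.4%, 50.0% and 45.8% of both arms. In the hemispheres it had 29, 23 and 8 reads beside 7453, 3326 and 2358, or 0.388%, 0.687% and 0.338%. In the pools it ranged from 0.352% in testes to 23.0% in liver, with 18.6% in the library labelled pancreas. In the remaining 12 pools the highest was 7.89%, in small intestine. The serum share was above that of every tissue library, but the Wilson 95% interval of the lowest serum library, 27.9% to 64.9%, is wide because of its 24 reads.

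**Figure D5:**
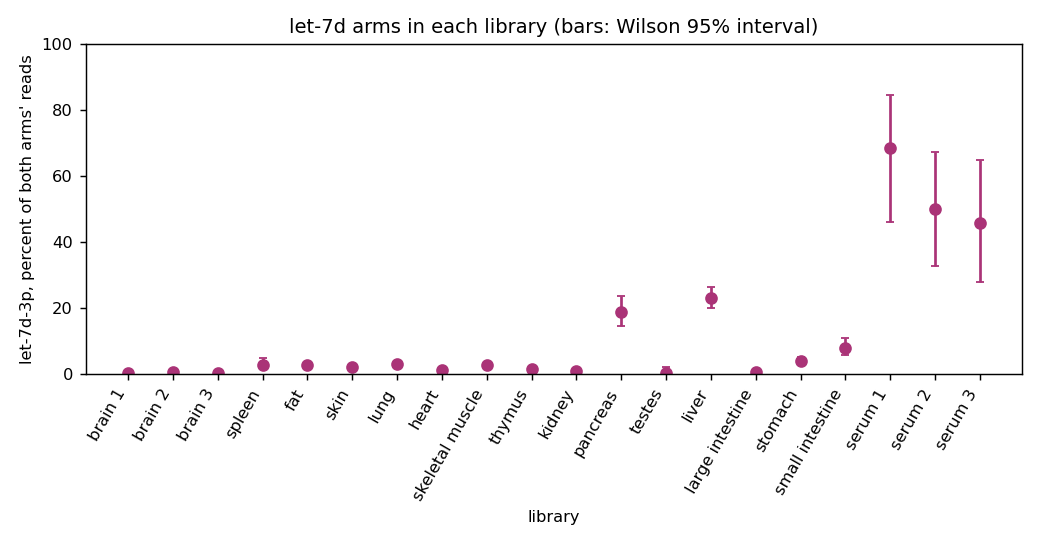
Reads of let-7d-3p as a percent of the reads of let-7d-3p and let-7d-5p in each of 20 libraries, with Wilson 95% intervals as bars. The serum libraries lie at 45.8% to 68.4%, liver at 23.0%, the library labelled pancreas at 18.6% and the hemispheres at 0.338% to 0.687%.

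In the comparison of brain with serum, let-7d-3p was called lower in brain, with a log2 fold change of −5.67 (edgeR, standard error 0.38, adjusted p = 1.0e-15), and it was called under each of the 13 alternatives. In RPM it stood at 2660, 1994 and 2027 in serum and 24.4 to 47.4 in brain. Of the 11 3p arms it was the 1 tested between brain and serum. It met the count filter in every serum library but not in brain replicate 3, with 8 reads, so it could be tested only with its serum reads. let-7a-1-3p, without reads in serum, was left out. The call therefore says nothing about the arms as a group, while the RPM values do not depend on the filter. Against the 14 pools 4 of the 11 3p arms were tested and 3 were called lower in brain, let-7a-1-3p (adjusted p = 0.032), let-7c-2-3p (adjusted p = 0.024) and let-7d-3p (adjusted p = 0.034, edgeR). Over all miRNAs tested 24.1% were called lower in this comparison. In brain replicate 3 the called arms had 3, 1 and 8 reads, in the same order, which is below the count filter. Each could therefore be tested only with its reads in the pools. An arm with as few brain reads and few in the pools would not have been tested. For this reason the 3 calls cannot be weighed against the 24.1%. Of 23 other settings, let-7a-1-3p was called in 15, let-7c-2-3p in 17 and let-7d-3p in 14. All 3 calls were lost with plain totals (adjusted p = 0.28, 0.13 and 0.13), with totals outside the family (0.32, 0.14 and 0.14), with no count filter (0.080, 0.0501 and 0.058) and without any 1 of the hemispheres (0.087 to 0.18). That of let-7d-3p was also lost without fat (0.058) or skin (0.053), that of let-7a-1-3p without skin (0.053), and both with the reads of miR-3596a, the antisense copy, added to let-7a-5p (0.0503 for each).

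How the reads were assigned bears on some members. The sources used here give neither the mismatches allowed in alignment nor the handling of reads that map to several places. let-7a-5p, let-7b-5p and let-7c-5p differ from each other only at bases 17 and 19. How well reads of such close members were told apart, in tissue or in serum, was not tested. miR-3596a, listed as a mature miRNA of its own, is the exact reverse complement of let-7a-5p, at the same place as let-7a-2 on the opposite strand of chromosome 8.
rno-let-7a-5p: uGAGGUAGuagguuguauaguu
miR-3596a: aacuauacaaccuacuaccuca

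In every library miR-3596a held 24.3% to 26.2% of the reads of the pair, so that its count followed that of let-7a-5p in all 20 libraries. Whether the counting used strand is not given in the sources used here. Adding its reads to let-7a-5p raised the brain mean from 20239 to 27081 RPM and the serum mean from 7007 to 9426 RPM. miR-3596c is also listed as a mature miRNA. It is the reverse complement of the first 21 bases of let-7e-5p, at the same place on the opposite strand of chromosome 1. Its reads were not compared with those of let-7e-5p, so whether the let-7e-5p counts are split in the same way was not tested. In the precursor lists mir-3596b, antisense to let-7d, held 82.1% of the reads of that pair in each library, and the share of let-7d in the family there cannot be read as a level. let-7a-1 held 47.1% to 51.6% and let-7c-1 46.2% to 53.1% of the reads of their copies in all libraries, so these copies, which give the same mature miRNA, are not resolved.

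let-7f-2 differed from this. It held 19.2% to 23.0% of the reads of the let-7f precursors in the hemispheres, 12.8% to 32.8% in the pools (the library labelled pancreas; without it, up to 29.8%, in liver) and 61.0% to 75.6% in serum. Both copies give the same mature miRNA. miR-3596d, which is not in the mature list, is the reverse complement of the first 20 bases of let-7f-5p. It lies at the place of let-7f-1, on the opposite strand of chromosome 17. Whether reads of let-7f-1 were split with it was not tested. In serum let-7f-2 had 40, 52 and 35 precursor reads and let-7f-1 25.6, 16.8 and 17.7, beside 27, 18 and 22 mature reads of let-7f-5p. The reads of let-7f-2 thus outnumbered the mature reads in each serum library, and in no tissue library. Both precursors together exceeded the mature reads in every library, with 84425 against 71469 in brain replicate 1. The split between the copies therefore cannot be read as the source of let-7f-5p. The cause was not tested.

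let-7g-5p, outside the 8 members, averaged 8490 ± 501 RPM in brain (SD, n = 3) and 2099 ± 753 RPM in serum (SD, n = 3), and was highest by RPM in spleen, at 10654. Its log2 fold change of brain over serum was 2.52 (edgeR, standard error 0.44, adjusted p = 4.2e-06).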

How the data were processed

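The authors deposited estimated counts (expected counts, not always whole) per miRNA for 20 rat libraries. They sequenced small RNA libraries (TruSeq, MiSeq), with bases under phred 20 trimmed, reads aligned to Rn5 with Bowtie and quantified in Partek Flow against miRBase 21 and RefSeq. Of the mature values, 97.3% were whole within 1e-06, and the large intestine list wrote 1 value to 3 digits. The mature list (577 miRNAs) was used, with the precursor list (444) as an alternative; the RefSeq rows (388) were not used. Counts were scaled to RPM of the mature total. For tests they were rounded and fitted with edgeR 4.0.16 in R 4.3.3 (quasi-likelihood, TMM, at least 10 counts in at least 3 libraries, Benjamini-Hochberg over all miRNAs tested, threshold 0.05); DESeq2 1.42.0 was an alternative. On simulated counts with 60 miRNAs changed 8-fold, 81.1% were recovered among 212 tested for brain against serum and 46.8% among 290 for brain against the pools, with 5.3% and 2.0% of calls false. The simulation gave all libraries of a comparison the same mean profile and drew rises and falls with equal probability. In the data, 52.8% were called higher and 14.2% lower in brain against serum, so these rates cannot be carried over to the data.

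The members, lists and tests were chosen with earlier results of these data known. The text names the 8 members, the let-7 and miR-98 3p arms and precursors, 5 neighbours on let-7 transcripts, and the 3 miRNAs most like the family total; let-7g-5p and miR-3596a were also chosen after their values were seen. Brain and serum came from 1 cohort of 3 rats, per the study, but the sources used here do not say that equal replicate numbers mark 1 rat, or how the serum replicates relate to separate bleeds, so p-values measure the spread between these libraries. Wilson and Poisson intervals (95%) and the limit of 3 reads cover counting error only, since reads without molecular identifiers are not independent molecules. Alternatives covered the scaling, count filter, test, threshold, pseudocount (0.1 and 10 RPM), annotation, replicate block and leaving out libraries.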

Additional observations from a re-analysis of the deposited data

How the results depend on the processing

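The count of miRNAs called between brain and serum, 142, ran from 114 to 144 when 1 library was left out, was 125 with the replicate block and stayed within 1.5 times under every other alternative. Beyond the shared cohort, replicate numbers are the only link between single brain and serum libraries. Same-numbered libraries deviated from their group means with r of −0.058 to −0.020 over 59 miRNAs, and no library correlated best with its own number. With so few libraries and serum reads, these values cannot tell whether equal numbers mark the same rat. The block ended the call of miR-99a-5p (adjusted p = 0.057) and changed that of no other miRNA named here. Between brain and the 14 pools the count of 128 fell to 67 at a threshold of 0.01 and ran from 71 to 152 without 1 library, being 71, 73 and 77 without brain replicates 1, 2 and 3; calls lower in brain then numbered 23, 21 and 23 instead of 70, and 28 with totals and 25 with totals outside the family. The family level of brain, 0.22 above the median tissue on the log2 scale, was 0.27 against the mature total without the family, 0.55 with precursors, −0.50 with TMM and −1.01 with DESeq2's size factors, and 0.18 to 0.24 without 1 hemisphere or the library labelled pancreas. The share of let-7f-5p in brain exceeded that in serum by 30.7 percentage points, 26.3 with precursors and 29.8 to 31.9 without 1 brain or serum library; that of let-7d-5p went from 1.66 to −0.11 points with precursors. The r of miR-26a-5p with the family total, 0.84, was 0.70 with TMM, 0.86 without brain and 0.84 without the library labelled pancreas, the tissues left out.

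Signs of values that were not called also turned. Between brain and serum let-7c-5p, at 0.08, was −0.15 with DESeq2 size factors, −0.36 with totals, −0.19 with totals outside the family, −0.16 with DESeq2 and −0.050 with precursors, and −0.19 to 0.43 without 1 library; miR-125a-5p, at −0.18, was 0.71 with no count filter, with a call (adjusted p = 0.040), and −0.47 to 0.44 without 1 library. Between brain and the pools let-7a-5p, at 0.00, was −0.20 with DESeq2 size factors and with DESeq2, and −0.051 to 0.22 without 1 library. let-7d-5p, at −0.02, was 1.06 with totals, 1.08 with totals outside the family, 0.13 with no count filter, 0.16 with miR-3596a reads added to let-7a-5p and −0.071 to 0.22 without 1 library. let-7i-5p, at −0.43, was 0.62 with totals and 0.61 with totals outside the family. miR-98-5p, at −0.22, was 0.86 and 0.88 with these totals, 0.040 with miR-3596a reads added and −0.28 to 0.10 without 1 library. The alternatives with let-7g-5p or miR-3596a were chosen after seeing the data. The causes were not tested. Depth limits serum most, where a member under 427 RPM has fewer than 3 reads in every library.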
